A study of Mus musculus with 12 samples.

Results

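The serpins are a superfamily of protease inhibitors and related proteins, and their transcripts were followed here through lung and liver of virgin and pregnant mice. The members were all genes whose only symbol in the platform annotation starts with Serpin. They numbered 40 of the 18193 genes measured. No expression value enters that rule, but the members were chosen with earlier results of these data known. Where a gene had several probe sets, the brightest on average over the 12 arrays stood for it. The 40 genes comprised 14 of clade A, 18 of clade B, 1 each of clades C, D, G and H, and 2 each of clades F and I. Agt, a gene of the same fold under another name, is given below with the proteins that act beside serpins.

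An inhibitory serpin exposes a reactive loop that a protease cleaves as if it were a substrate, and the cleaved serpin then changes shape and holds the protease in a covalent complex. Clade A, C, D, F and G serpins are largely secreted, many of them by hepatocytes, and restrain clotting, fibrinolytic, complement and neutrophil proteases in plasma. Some members inhibit nothing and instead carry hormones or help collagen to fold, and most clade B serpins stay inside cells. In rodents the Serpina1, Serpina3, Serpinb6 and Serpinb9 genes have multiplied into families of close copies, so a probe set of these may also have measured a sister gene.

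The tissues came from female NOD/SCID mice, an inbred immunodeficient strain without mature T and B cells, aged 8 to 10 weeks when the experiments began. The 4 groups were lung and liver of virgin mice and lung and liver of mice at gestation day 16. Each group held 3 arrays, and each array carried RNA pooled from 2 mice, so differences between single animals were not measured and p-values reflect the spread between pools. The labels do not say whether lung and liver of the same number came from the same mice.

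All values are deposited log2 expression values, on which a difference of 1 is a 2-fold change. The array medians lay between 4.491 and 4.555, and the median level of all probe sets was 4.528. The number of arrays limits the precision. Spike-in control RNA averaged 10.78 to 11.28 on 10 arrays, but only 4.68 in virgin liver pool 3 and 5.01 in pregnant liver pool 3. Called liver changes of Serpin genes are therefore also given within pools 1 and 2 and within pool 3 where the 2 values were over 1.5 times apart. The labelled tissues carried their markers: all 12 hepatocyte markers were lower in virgin lung than in virgin liver, and all 11 lung epithelium markers measured were higher. In whole tissue, fewer cells of a type and less RNA per cell cannot be told apart.

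In virgin mice the genes of clades A, C, D, F and G, largely secreted, were all higher in liver, while 7 clade B genes and Serpinh1 were higher in lung. Among these, Serpina1f, Serpina5, Serpinb1b and Serpinb2 lay below the median of all probe sets in all 4 groups, where no signal is shown. Of the 40 genes, 22 were lower in lung than in liver and 8 were higher at an adjusted p under 0.05 (limma, Benjamini-Hochberg over all genes), and 10 were not called. These 30 genes are 75% of the members, against 68.7% of all genes (34.3% higher and 34.4% lower in lung), so the share called was close to the background. The arrays of the tissues did not overlap for 33 members (82.5%), against 73.2% of all genes. The median difference, lung minus liver, was -0.42 over the 40 genes and -0.07 over all genes. In pregnant mice 22 genes were lower in lung and 6 higher, or 70% of members against 71.5% of all genes, and the 26 genes called in both states had the same sign in both.

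The 6 genes furthest below liver in virgin lung were plasma protein genes. Serpinc1, which encodes antithrombin, the main inhibitor of thrombin and factor Xa, had log2 levels of 3.05, 2.97 and 3.19 in virgin lung and 13.49, 13.44 and 13.55 in virgin liver, a difference of -10.42 ± 0.11 (SE, adjusted p = 1.98e-17). The antitrypsin copy Serpina1c read 3.29, 4.21 and 3.96 in virgin lung and 14.06, 14.07 and 14.19 in virgin liver, and Serpina6 differed by -9.16 ± 0.18. The differences of Serpina11, Serpina10 and Serpinf2 were -7.70 ± 0.17, -7.67 ± 0.12 and -7.27 ± 0.12. In virgin lung the mean levels of these 6 genes lay between 2.44 and 4.29, below the median of all probe sets, so their lung values carry no shown signal and these differences have no calibrated size.

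Other clade A genes had probe sets that read above the median of all probe sets in both tissues. Serpina1b, an antitrypsin copy, had a mean level of 9.18 ± 0.26 in virgin lung and 14.13 ± 0.03 in virgin liver (SD, n = 3), and Serpina3n read 8.07 ± 0.11 and 11.66 ± 0.16. Both Serpina1b probe sets have a suffix that marks sequence shared with other genes. A probe set naming Serpina1e, Serpina1c and Serpina1b together read only 2.48 in virgin lung. Which copy gave the lung reading was not tested. Serping1, the complement C1 inhibitor, was the secreted serpin closest to parity among those with levels above 8 in both tissues, at 11.94 ± 0.05 in virgin lung and 12.60 ± 0.11 in virgin liver (difference -0.66 ± 0.09, adjusted p = 1.48e-05). Serpinf1, which encodes the anti-angiogenic factor PEDF, was lower in lung by a larger margin (8.23 ± 0.13 against 12.35 ± 0.02). Across lung and liver these genes kept separate ranges on every virgin array.

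The 6 genes furthest above liver in virgin lung were 5 clade B genes and the collagen chaperone. Serpinb6b read 10.18, 10.20 and 10.06 in virgin lung and between 4.61 and 5.14 in virgin liver, a difference of 5.23 ± 0.17 (adjusted p = 2.03e-12). Serpinb1a, an inhibitor of neutrophil elastase, proteinase 3 and cathepsin G, differed by 3.22 ± 0.15, and Serpinb9, which protects cells against granzyme B, by 3.06 ± 0.14. Serpinb6a, an inhibitor of cathepsin G, read 10.67, 10.60 and 10.66 in virgin lung and 8.32, 8.60 and 8.32 in virgin liver (difference 2.23 ± 0.12). For none of these 4 did a lung array overlap a liver array.

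Serpinh1, which encodes the procollagen chaperone HSP47, was higher in virgin lung by 1.63 ± 0.15 (adjusted p = 1.69e-07), by 2.82 when its probe sets were averaged and by 4.01 in the probe set without a shared-sequence suffix, so its size depends on the probe set. Averaging the probe sets of Serpinb1a gave 2.07. Serpinb1b was higher by 0.86 ± 0.13 with mean levels of 3.79 and 2.93, both below the median of all probe sets. Neutrophil marker genes had a mean log2 level of 7.26 to 7.54 on virgin lung arrays and 5.39 to 5.48 on virgin liver arrays, and the part of such cells in the clade B difference was not tested.

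**Figure D1:**
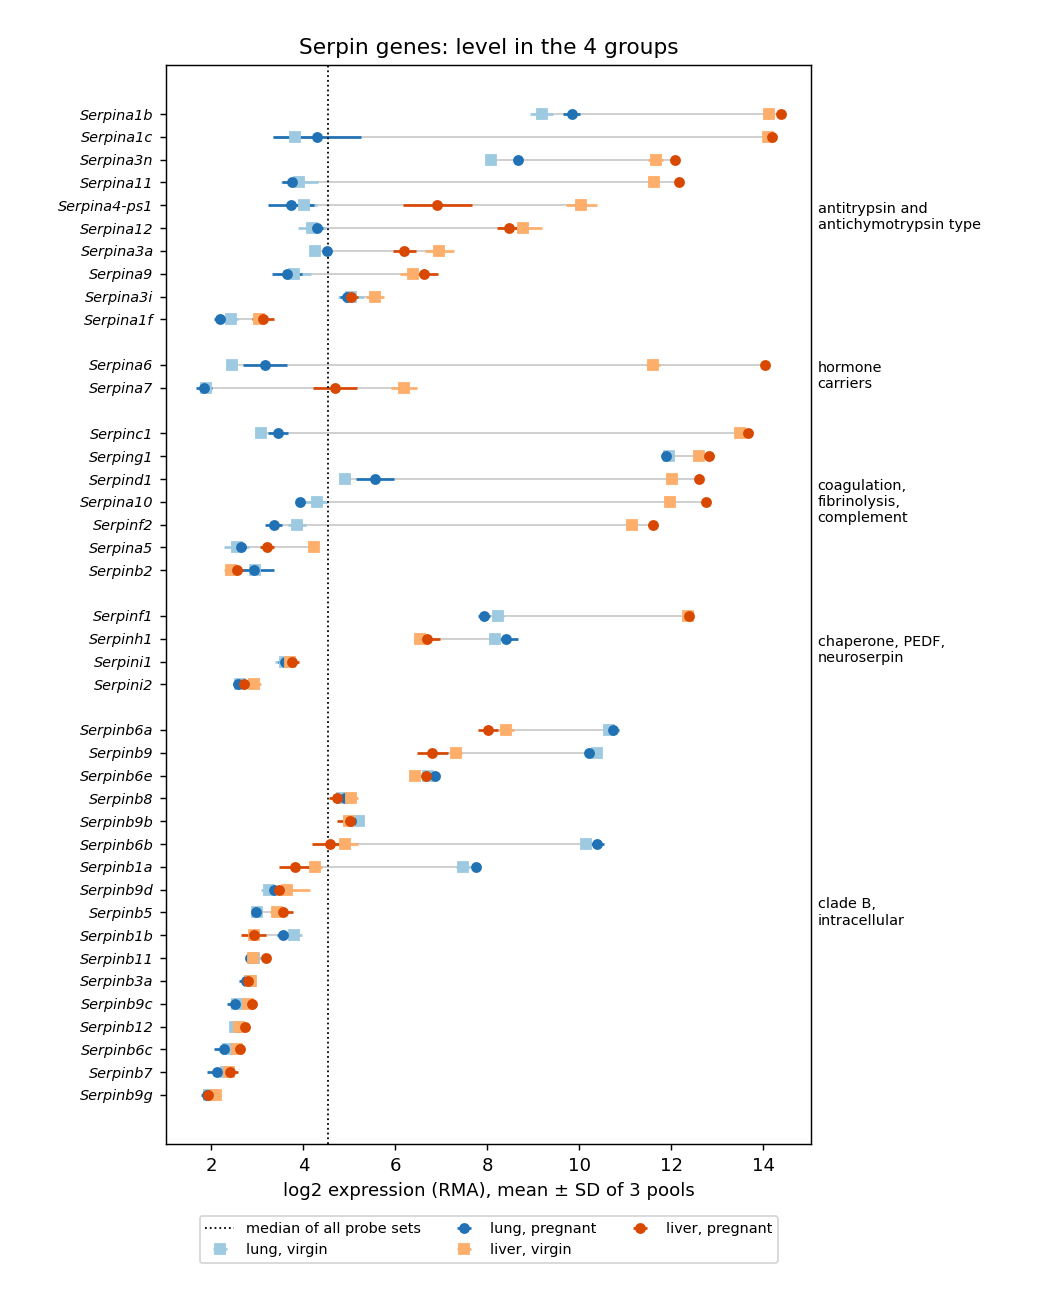
Mean log2 level of each of the 40 Serpin genes in the 4 groups (horizontal axis), with genes grouped by role on the vertical axis, bars for the SD of 3 pools and a dotted line at the median level of all probe sets, 4.528. Within each state clade A genes lie further right in liver than in lung, while Serpinb6b, Serpinb1a, Serpinb9 and Serpinb6a lie further right in lung. Serpina3i in pregnant mice was nearly level, at 4.94 in lung and 5.03 in liver.

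More serpins passed the test between virgin and pregnant mice in liver than in lung, as did more genes in all. In liver 6 genes rose and 7 fell, so that 13 of 40 (32.5%) were called, against 13.6% of all genes (6.02% rose and 7.62% fell). The groups of arrays did not overlap for 21 of the 40 (52.5%), 11 higher and 10 lower, against 28% of all genes, and all 13 called genes were among them. At least 2-fold were the changes of 4 genes: Serpina6, Serpina4-ps1, Serpina7 and Serpina5. In lung 2 genes rose and 0 fell at this threshold (5% of members against 0.594% of all genes, 0.258% higher and 0.335% lower), and 13 (32.5%) did not overlap, against 18.4% of all genes. The median change was 0.06 in liver and -0.03 in lung over the 40 genes, and -0.01 in each tissue over all genes. The uncalled members changed by -0.42 to 0.30 in liver and by -0.51 to 0.73 in lung.

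**Figure D2:**
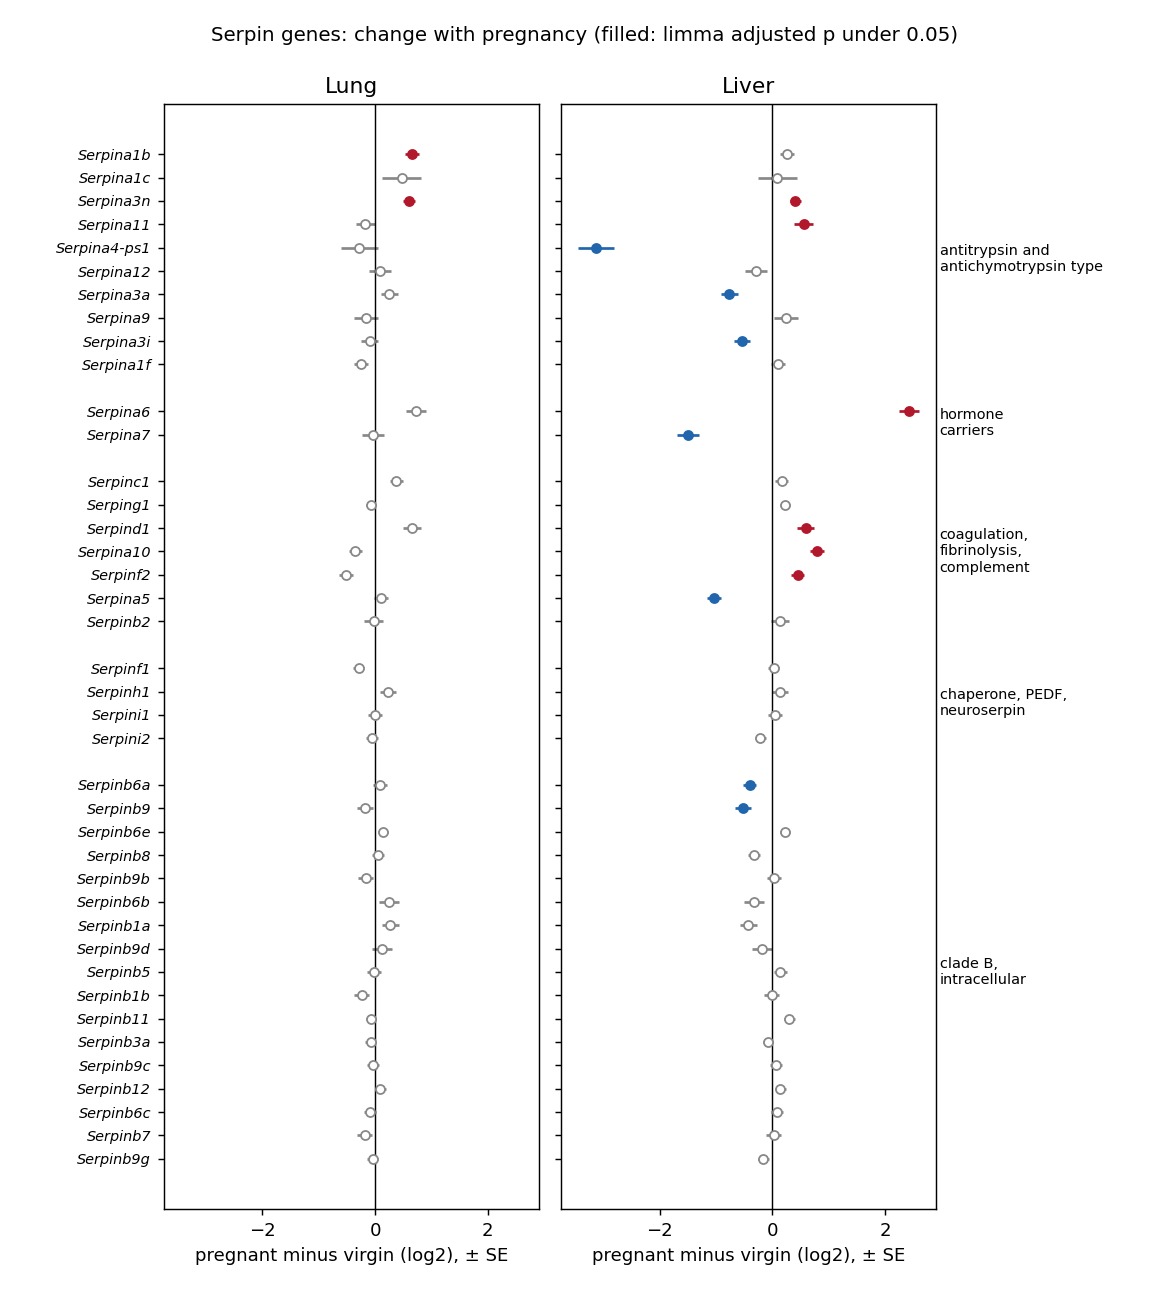
Pregnant minus virgin difference in log2 level for each of the 40 Serpin genes, by role, in lung and in liver, with bars for the SE from limma. Filled points have an adjusted p under 0.05 (red higher, blue lower in pregnant mice): 13 genes in liver, from -3.12 for Serpina4-ps1 to 2.42 for Serpina6, and Serpina1b and Serpina3n in lung.

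The genes of both hormone carriers changed in liver, in opposite directions. Serpina6 encodes corticosteroid-binding globulin, which carries glucocorticoids and progesterone in plasma. Its log2 levels in liver were 11.48, 11.76 and 11.56 on the virgin arrays and 14.02, 14.02 and 14.03 on the pregnant arrays. Every pregnant array was thus more than 2 log2 units above every virgin array, and the gene rose by 2.42 ± 0.18 (SE, 5.37-fold, adjusted p = 5.67e-07). The pregnant values lay near the highest value of any probe set on a liver array, 14.52 to 14.55, and whether the signal was still proportional there was not tested.

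Serpina7 encodes thyroxine-binding globulin, the carrier of thyroid hormone. It read 5.86, 6.32 and 6.39 in virgin liver and 4.24, 4.62 and 5.21 in pregnant liver, with no overlap, a fall of 2.83-fold (log2 -1.50 ± 0.20, adjusted p = 0.000167). On 1 of the pregnant arrays it lay below the median of all probe sets. In lung the levels of Serpina7 were 1.68 to 2.02 on the 6 arrays. Serpina6 in lung read 2.35, 2.46 and 2.52 in virgin and 2.72, 3.10 and 3.68 in pregnant mice, all below the median of all probe sets, and its change of 0.73 ± 0.18 was not called (adjusted p = 0.0965).

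Among the 7 measured inhibitors of coagulation, fibrinolysis and complement, 3 rose in liver, 1 fell and 3 were not called. Serpina10 encodes the protein Z-dependent inhibitor of factor Xa. It read 11.91, 12.05 and 11.92 in virgin liver and 12.65, 12.80 and 12.80 in pregnant liver, and rose 1.73-fold (log2 0.79 ± 0.12, adjusted p = 0.000373). Its only probe set has a shared-sequence suffix, so Serpina10 dropped out of the fit without such probe sets. Serpind1 encodes heparin cofactor II, a thrombin inhibitor, and rose from 11.91, 11.99 and 12.13 to 12.55, 12.59 and 12.66 (log2 0.59 ± 0.16, 1.51-fold, adjusted p = 0.0226). Serpinf2 encodes the plasmin inhibitor alpha-2-antiplasmin and rose from 11.10, 11.08 and 11.24 to 11.52, 11.54 and 11.71 (log2 0.45 ± 0.12, 1.37-fold, adjusted p = 0.0206). The pregnant arrays of these 3 genes were all above the virgin arrays.

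Serpina5, which encodes protein C inhibitor, fell in liver from 4.21, 4.25 and 4.24 to 3.24, 3.04 and 3.34 (log2 -1.03 ± 0.12, 2.04-fold, adjusted p = 7.87e-05). It was the only called gene among the 15 members whose means were under 4.528 in all 4 groups, and the size of a change at such levels is not calibrated. Antithrombin did not pass, with 13.49, 13.44 and 13.55 in virgin and 13.65, 13.65 and 13.67 in pregnant liver (log2 0.16 ± 0.11, adjusted p = 0.384). Serping1 changed by 0.22 ± 0.09 (adjusted p = 0.136, and 0.0321 with a variance trend and robust moderation) and the plasminogen activator inhibitor gene Serpinb2, at levels under 3, by 0.14 ± 0.17. Pregnant arrays of antithrombin lay above all virgin ones even so.

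The Serpind1 and Serpinf2 calls in liver did not hold whichever array was left out. Serpind1 did not pass without virgin pool 1, virgin pool 2, pregnant pool 2 or pregnant pool 3 (highest adjusted p = 0.0769, without virgin pool 1). Serpinf2 did not pass without virgin pool 1, virgin pool 2 or pregnant pool 3 (highest adjusted p = 0.0688, without virgin pool 2). Both kept a positive change in every such fit.

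The antitrypsin and antichymotrypsin group held 10 measured genes, of which 2 rose and 3 fell in liver. These are the genes in which paralogs diverged, and the start-site sequences of 3 Serpina3 copies are shown because they moved in different directions: Serpina3n rose while Serpina3i and Serpina3a fell. The sequences are from RefSeq on build GRCm38.p6, run from 250 bases before to 50 after the gene's start, and lie on the plus strand at chr12:104406458-104406757, chr12:104262872-104263171 and chr12:104112474-104112773. Capitals mark the only match to the STAT factor motif TTCNNNGAA in the 3 sequences.
Serpina3n: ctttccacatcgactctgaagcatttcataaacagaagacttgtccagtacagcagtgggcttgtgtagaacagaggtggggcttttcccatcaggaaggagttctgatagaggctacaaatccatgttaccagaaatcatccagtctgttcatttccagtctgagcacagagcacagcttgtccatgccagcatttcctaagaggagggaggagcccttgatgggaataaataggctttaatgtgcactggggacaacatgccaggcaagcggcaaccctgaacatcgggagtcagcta
Serpina3i: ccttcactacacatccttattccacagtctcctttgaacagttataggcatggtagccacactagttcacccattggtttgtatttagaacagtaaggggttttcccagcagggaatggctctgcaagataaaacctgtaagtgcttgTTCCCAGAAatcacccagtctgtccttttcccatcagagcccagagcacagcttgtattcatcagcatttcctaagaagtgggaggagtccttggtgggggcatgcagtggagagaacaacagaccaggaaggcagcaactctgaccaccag
Serpina3a: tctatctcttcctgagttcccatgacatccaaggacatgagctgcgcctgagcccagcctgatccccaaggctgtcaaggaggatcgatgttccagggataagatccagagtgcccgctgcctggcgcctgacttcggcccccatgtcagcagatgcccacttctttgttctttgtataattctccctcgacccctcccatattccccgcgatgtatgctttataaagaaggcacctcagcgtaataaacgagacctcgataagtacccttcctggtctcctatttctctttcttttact

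The Serpina3n and Serpina3i sequences were identical at 216 of 335 aligned columns (64.5%). The other 9 pairs among the promoters of Serpina1b, Serpina5, Serpina3a, Serpina3i and Serpina3n were identical at 46.3% to 50.4%. The motif TTCNNNGAA, which reads the same on both strands, started 102 bases before the Serpina3i start as TTCCCAGAA. It was present in 2726 of 32851 RefSeq promoters of this length (8.3%) and in 8 of 40 Serpin promoters (20%), which belonged to the 6 genes Serpina11, Serpina1f, Serpina3i, Serpinb2, Serpinb6a and Serpinb9c. Of these 6, Serpina11 rose in liver, Serpina3i and Serpinb6a fell and the other three were not called. Neither the glucocorticoid receptor palindrome nor the HNF1 palindrome, each present in 3 of 32851 promoters, matched a Serpin promoter. A match in such a window is a run of letters and not a measured site, and promoters were matched for 34 of the 40 genes.

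Serpina3n is a mouse counterpart of human antichymotrypsin that is known to rise in the acute phase response. It was called in both tissues. In lung it read 8.20, 7.99 and 8.04 on the virgin and 8.70, 8.70 and 8.62 on the pregnant arrays (log2 0.60 ± 0.10, 1.51-fold, adjusted p = 0.0209). In liver it read 11.56, 11.57 and 11.84, and 12.04, 11.98 and 12.18 (log2 0.41 ± 0.10, 1.33-fold, adjusted p = 0.0154). The groups did not overlap in either tissue, and the difference between the changes was 0.19 (adjusted p = 0.524). The lung call did not hold without virgin pool 2, virgin pool 3, pregnant pool 1 or pregnant pool 2 (highest adjusted p = 0.106, without virgin pool 2), and the liver call did not hold without virgin pool 1, virgin pool 2 or pregnant pool 3 (highest adjusted p = 0.0638, without virgin pool 1).

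Both other measured Serpina3 copies fell in liver and did not pass in lung. Serpina3a read 7.21, 7.05 and 6.61 in virgin and 6.40, 5.91 and 6.27 in pregnant liver, a fall of 1.70-fold (log2 -0.76 ± 0.15, adjusted p = 0.00319). Serpina3i read 5.49, 5.78 and 5.42 in virgin and 4.88, 5.18 and 5.02 in pregnant liver (log2 -0.53 ± 0.15, 1.45-fold, adjusted p = 0.0261). Both fell without overlap between the groups. Pools 1 and 2 gave a Serpina3a change of -0.97 and pool 3 one of -0.34, and that of Serpina3i was -0.60 and -0.40. Serpina3i did not pass without virgin pool 2, pregnant pool 1 or pregnant pool 3 (highest adjusted p = 0.111, without virgin pool 2).

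Serpina4-ps1, annotated as a pseudogene of the kallistatin type, had the largest fall of the 40 genes in liver. It read 10.26, 9.65 and 10.20 on the virgin arrays and 7.53, 7.14 and 6.07 on the pregnant arrays, a fall of 8.71-fold (log2 -3.12 ± 0.32, adjusted p = 1.74e-05). All pregnant arrays were more than 2 log2 units below all virgin arrays, and the lowest was pregnant pool 3, so that pools 1 and 2 gave -2.62 and pool 3 gave -4.13. Its 3 probe sets gave changes between -3.12 and -2.85. In lung it read 3.70, 4.14 and 4.20 in virgin and 4.10, 3.95 and 3.17 in pregnant mice, below the median of all probe sets.

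Serpina11, a clade A gene whose target is not established, rose from 11.53, 11.57 and 11.74 in virgin liver to 12.22, 12.12 and 12.15 in pregnant liver (log2 0.55 ± 0.17, 1.47-fold, adjusted p = 0.0411). The groups did not overlap, but the call was lost whichever of the 6 liver arrays was left out (highest adjusted p = 0.115, without virgin pool 1), and pools 1 and 2 gave 0.62 where pool 3 gave 0.41.

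The Serpina1 copies encode mouse alpha-1 antitrypsins, the plasma inhibitors of neutrophil elastase, and Serpina1b was the other gene called in lung. It read 9.02, 9.03 and 9.48 in virgin and 9.97, 9.92 and 9.62 in pregnant lung, with no overlap (log2 0.66 ± 0.12, 1.58-fold, adjusted p = 0.0345). In liver it read 14.12, 14.10 and 14.17 in virgin and 14.38, 14.36 and 14.40 in pregnant mice, close to the array maximum (log2 0.25 ± 0.12, adjusted p = 0.216). Its second probe set gave a change of 0.81 in lung and 0.31 in liver. Both probe sets have a shared-sequence suffix, so the lung change may belong to a sister copy. Serpina1b dropped out of the fit without such probe sets. The tissues' changes differed by 0.41 (adjusted p = 0.213). The lung call did not hold without virgin pool 1, virgin pool 2, pregnant pool 1 or pregnant pool 2, with a highest adjusted p of 0.152, without virgin pool 2. With pool number as a block its adjusted p was 0.108.

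Serpina1c was not called in either tissue, with a change of 0.47 ± 0.35 in lung (adjusted p = 0.759) and 0.09 ± 0.35 in liver. Its lung values were 3.57, 3.92 and 5.39 in pregnant mice, the last from pregnant pool 3. On the array of pregnant lung pool 3 the hepatocyte gene Alb read 7.22, against 4.85 to 5.44 on the other 5 lung arrays, and the mean over the 12 hepatocyte markers was 4.71, against 4.35 to 4.55. That array was also the highest in pregnant lung for Serpina6, but the lowest in pregnant lung for Serpina1b, Serpina3n and Serpind1. The part of hepatocyte RNA in these lung values was not tested.

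The remaining clade A genes were not called in liver or lung. Serpina12, which encodes the adipokine vaspin, read 8.77 ± 0.41 in virgin and 8.47 ± 0.26 in pregnant liver (SD, n = 3). Serpina9, known in human germinal centre B cells, read 6.39 ± 0.29 and 6.63 ± 0.30 there. Serpina1f had mean levels of 2.19 to 3.13 in the 4 groups.

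The lung values of 2 inhibitors changed side under other settings. Serpind1 read 5.02, 4.80 and 4.87 in virgin and 5.85, 5.73 and 5.09 in pregnant lung (log2 0.66 ± 0.16, adjusted p = 0.0885), and without pregnant pool 3 the difference was 0.90 (adjusted p = 0.00291). Serpinf2 read 3.65, 4.00 and 3.95, and 3.21, 3.30 and 3.55, all below the median of all probe sets (log2 -0.51 ± 0.12, adjusted p = 0.0749). Without pregnant pool 3 it was -0.61 (adjusted p = 0.0447), and without virgin pool 1 its adjusted p was 0.0445. Leaving out pregnant pool 1 brought Serpina6 in lung to 0.95 (adjusted p = 0.0182), with all its lung levels still below the median.

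**Figure D3:**
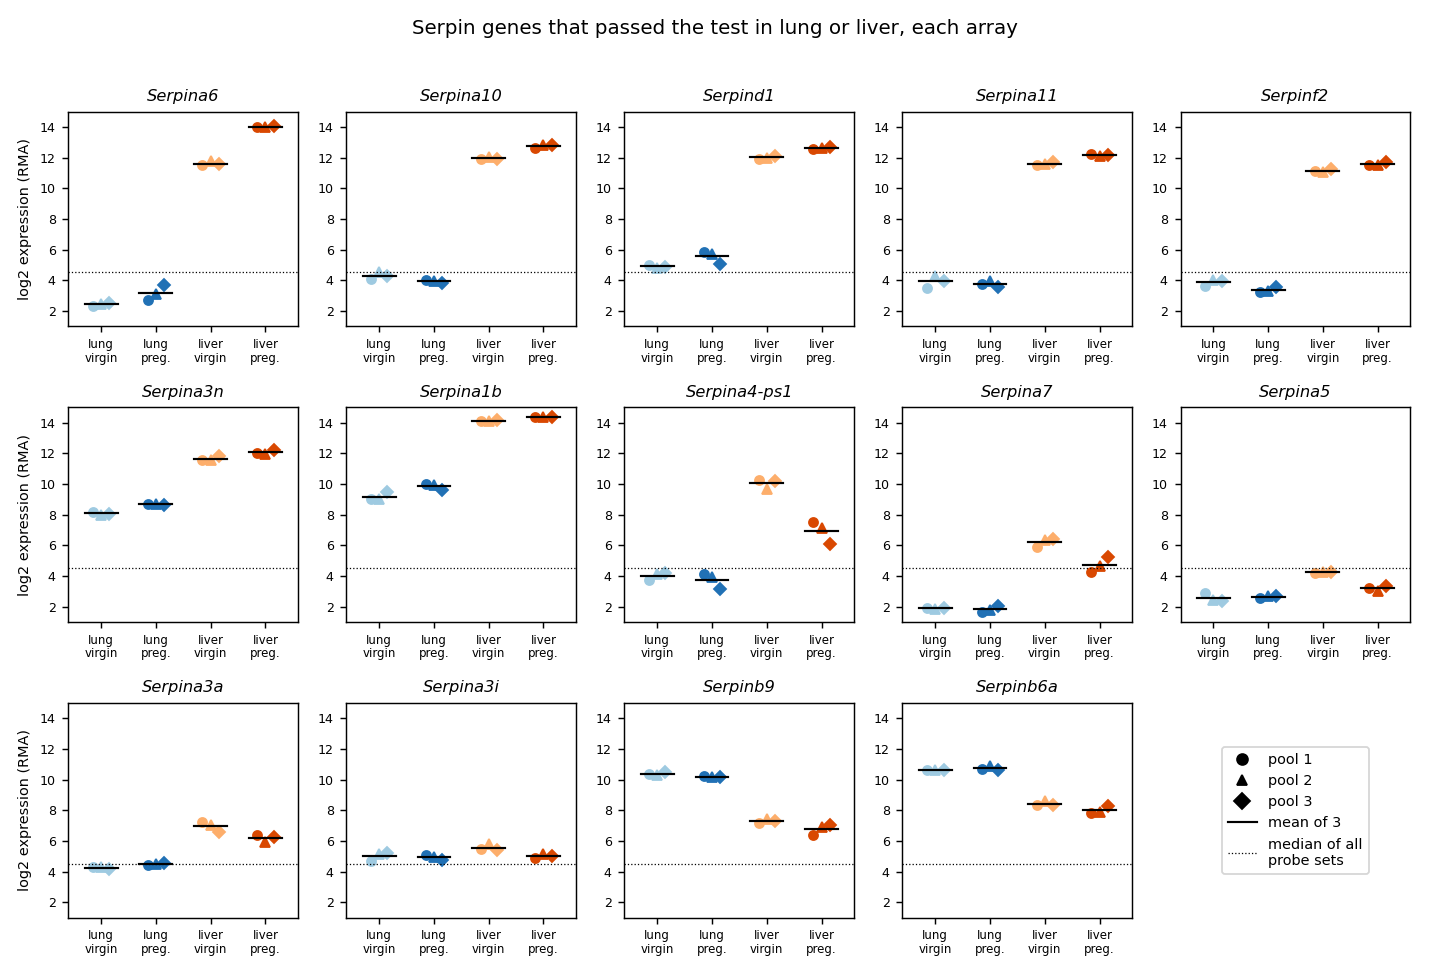
Log2 level on each of the 12 arrays for the 14 Serpin genes called in lung or liver, by group, with pool 1 as circles, pool 2 as triangles, pool 3 as diamonds, a bar at the group mean and a dotted line at the median of all probe sets. In liver the virgin and pregnant arrays do not overlap for the 13 genes called there, with Serpina6 at 11.48 to 11.76 against 14.02 to 14.03.

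Of the 18 clade B genes 0 rose and 2 fell in liver (11.1%, against 13.6% of all genes), and 0 were called in lung, where 0.594% of all genes were, so both shares were near the background. Serpinb9 read 7.20, 7.44 and 7.33 in virgin liver and 6.42, 6.91 and 7.07 in pregnant liver (log2 -0.52 ± 0.14, 1.44-fold, adjusted p = 0.0211). Serpinb6a read 8.32, 8.60 and 8.32, and 7.86, 7.92 and 8.25 (log2 -0.40 ± 0.12, 1.32-fold, adjusted p = 0.0383). Both fell without overlap, but by unequal amounts in the pools. The Serpinb9 change was -0.65 in pools 1 and 2 but -0.26 in pool 3, and that of Serpinb6a was -0.57 and -0.07.

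Serpinb9 did not pass without virgin pool 2, virgin pool 3 or pregnant pool 1 (highest adjusted p = 0.0807, without virgin pool 2). Serpinb6a did not pass when any of virgin pool 1, virgin pool 2, virgin pool 3, pregnant pool 1 or pregnant pool 2 was left out (highest adjusted p = 0.149, without virgin pool 2). With pool number as a block the adjusted p of Serpinb6a was 0.0723. Granzyme B, the protease that Serpinb9 inhibits, also fell in liver (Gzmb, log2 -0.70 ± 0.12, adjusted p = 0.000961). The 9 measured NK cell markers had a mean log2 level of 4.31 to 4.57 on virgin and 4.27 to 4.40 on pregnant liver arrays. Of these 9, 0 were called there, but 4 in virgin and 6 in pregnant liver lay below the median of all probe sets. A change in such markers could be missed, and the part of NK cells in the Serpinb9 change was not tested.

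In lung the same genes gave values without a call. Serpinb9 read 10.37, 10.30 and 10.47 in virgin and 10.24, 10.20 and 10.17 in pregnant mice (log2 -0.18 ± 0.14, adjusted p = 0.785). Serpinb6a changed by 0.09 ± 0.12, Serpinb6b by 0.24 ± 0.17 and Serpinb1a by 0.27 ± 0.15, none of them called. In liver Serpinb1a changed by -0.42 ± 0.15 (adjusted p = 0.0767), Serpinb6b by -0.33 ± 0.17, Serpinb8 by -0.32 ± 0.11 (adjusted p = 0.0602) and Serpinb11 by 0.30 ± 0.10 (adjusted p = 0.0519). A second Serpinb8 probe set gave -0.58 ± 0.13 in liver (limma, adjusted p = 0.00976 over all probe sets). With the probe sets of a gene averaged, both passed in liver, Serpinb8 at -0.45 (adjusted p = 0.0107) and Serpinb11 at 0.30 (adjusted p = 0.0391). Serpinb8 also passed with dim genes left out (adjusted p = 0.0403), with quantile normalization (adjusted p = 0.0396) and without pregnant pool 1 (-0.41, adjusted p = 0.0242). Serpinb1a passed in liver with quantile normalization (adjusted p = 0.0462) and without pregnant pool 1 (-0.53), and Serpinb9d without virgin pool 3 (-0.46, adjusted p = 0.0268). Of the 18 clade B genes, 11 lay below the median of all probe sets in all 4 groups.

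The collagen chaperone, PEDF and the neuroserpin types did not pass in either tissue. Serpinh1 changed by 0.23 ± 0.15 in lung and 0.14 ± 0.15 in liver, and Serpinf1 by -0.29 ± 0.10 (adjusted p = 0.256) and 0.02 ± 0.10. Serpini1, which encodes neuroserpin, an inhibitor of tissue plasminogen activator, and Serpini2, a gene expressed in pancreas, lay below the median of all probe sets in all 4 groups and changed by -0.21 to 0.05.

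For 7 genes the change in lung differed from the change in liver at an adjusted p under 0.05, which is 17.5% of the 40 genes against 6.71% of all genes (3.34% positive and 3.37% negative). The difference, lung change minus liver change, was negative for Serpina6 (-1.70 ± 0.25, adjusted p = 0.000914), Serpina10 (-1.14 ± 0.16, adjusted p = 0.000748) and Serpinf2 (-0.97 ± 0.17, adjusted p = 0.00296). These 3 rose in liver, and in lung their changes were 0.73, -0.35 and -0.51 with no call. The difference was positive for Serpina4-ps1 (2.85 ± 0.46, adjusted p = 0.00176), Serpina7 (1.46 ± 0.28, adjusted p = 0.00626), Serpina5 (1.13 ± 0.18, adjusted p = 0.0014) and Serpina3a (1.02 ± 0.21, adjusted p = 0.00905), which all fell in liver. The lung means of all 7 were below the median of all probe sets in both states, levels at which no signal above background is shown. All 7 differences held whichever of the 12 arrays was left out.

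Most clade A genes lie in 1 cluster, and measured members next in order went different ways. Chromosome 12 carried 13 of the members, which stand in the order Serpina10, Serpina6, Serpina1f, Serpina1b, Serpina1c, Serpina11, Serpina9, Serpina12, Serpina4-ps1, Serpina5, Serpina3a, Serpina3i and Serpina3n in RefSeq on GRCm38.p6. In liver 4 of the 13 rose, 4 fell and 5 were not called. The 4 that fell, from Serpina4-ps1 to Serpina3i, are consecutive among the measured members, and the next, Serpina3n, rose. Serpina3b, Serpina3c, Serpina3f, Serpina3g, Serpina3h, Serpina3j, Serpina3k and Serpina3m were not measured, so consecutive members need not be adjacent genes. Serpina7, the other clade A gene, lies on the X chromosome. Of the 11 members on chromosome 13, all clade B, 2 fell and 0 rose.

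**Figure D4:**
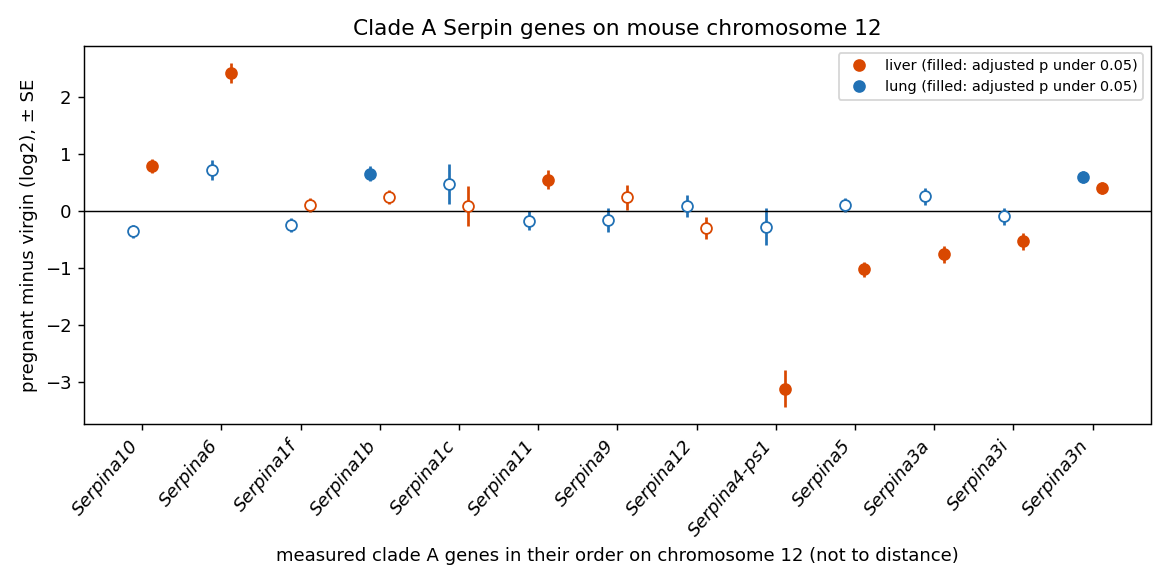
Pregnant minus virgin difference in log2 level (vertical axis, bars for SE) of the 13 clade A genes on chromosome 12, in chromosomal order and not to genomic scale, in liver (orange) and in lung (blue). Among the measured genes Serpina4-ps1, Serpina5, Serpina3a and Serpina3i are consecutive and below 0 in liver, between -3.12 and -0.53, and Serpina3n at the end stands at 0.41. Several other Serpina3 copies were not measured.

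Of 37 measured proteases that serpins inhibit, 9 rose, 3 fell and 25 were not called in liver (32.4% called, against 13.6% of all genes), with a median change of 0.08 against -0.01 over all genes. The largest rises were in F7 (1.51 ± 0.09, adjusted p = 1e-07), the clotting initiator factor VII, in the neutrophil protease gene Prtn3 (1.16 ± 0.25, adjusted p = 0.00604) and in F10 (0.73 ± 0.11, adjusted p = 0.000385), whose active product is inhibited by antithrombin and the Serpina10 protein. The largest fall was in Prss8, which encodes the membrane protease prostasin (-0.94, adjusted p = 0.00815). F2, which encodes prothrombin, rose by 0.44 ± 0.14 (adjusted p = 0.0493), while Plg, which encodes plasminogen, changed by 0.14 (adjusted p = 0.5). Neutrophil markers had a mean level of 5.39 to 5.48 on virgin and 5.97 to 6.38 on pregnant liver arrays, 3 of 11 were higher, and their part in the Prtn3 value was not tested.

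Of 27 cofactors, receptors and other inhibitors, 5 rose, 1 fell and 21 were not called in liver (22.2% called, against 13.6% of all genes). A2m, which encodes alpha-2-macroglobulin, a trap for many proteases, rose from a mean of 3.79 to 10.41 (adjusted p = 5.36e-13), and since the virgin level lay below the median of all probe sets the size of this rise is not calibrated. Itih4, of the inter-alpha-trypsin inhibitor family, rose by 0.85, Thbd, which encodes the thrombin receptor thrombomodulin, by 0.52, and Vtn, which encodes vitronectin, by 0.40, while Wfdc2 fell by 0.69. Agt, which encodes angiotensinogen, a non-inhibitory serpin, changed by 0.12 (adjusted p = 0.68). Among 32 acute phase genes other than serpins, 8 rose and 2 fell in liver (31.2% called, against the same 13.6%), with a median change of 0.30. Itih3 and Itih4 were in this list and in the list of cofactors, receptors and other inhibitors. In lung 0 genes of these 3 lists were called, against 0.594% of all genes, and the acute phase median was 0.14. In liver the metallothionein genes Mt2 and Mt1 rose by 1.82 and 1.61 and the receptor gene Il6ra by 1.32, whereas the hepcidin gene Hamp fell by 1.29.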

How the data were processed

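RNA of lung and liver from virgin and pregnant mice was measured on single-colour Affymetrix mouse arrays, with 3 arrays a group and RNA of 2 mice on each. The deposited values are log2 expression values, made by the authors with RMA and the affy package per the submitters' processing notes. Their versions and the set of arrays normalized together are not given in the sources used here. RMA adjusts background, equalises the distributions of the arrays and summarises the probes of each probe set, which compresses changes near background.

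Control probe sets (64 of 45101) were removed, and probe sets with several symbols (932) or none (9160) stood outside the gene tests. The 40 Serpin genes came from 56 probe sets with 1 symbol, 12 genes having more than 1. A model of 4 group means was fitted over all 18193 genes with limma 3.58.1 (R 4.3.3), whose moderated variances had 8 residual plus 5.6 prior degrees of freedom. The threshold for a call was 0.05 after Benjamini-Hochberg adjustment, and no filter on dim genes was applied. Promoter sequences were matched to genes by symbol.

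Named with their values are the members called in lung, up to 8 rises and 8 falls in liver, 6 differences in each direction between the virgin tissues, the 4 largest differences between the changes, and up to 4 genes of each pathway list. The other 3 called differences between the changes, uncalled members, uncalled pathway genes, F2, Vtn and Gzmb were named after their values were seen. The members and lists were chosen with earlier results of these data known. The fit was tested on simulated data with known changes. Alternatives changed the probe set rule, the filter, the scaling, the variance model, the arrays in the fit, the threshold and the blocks.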

Additional observations from a re-analysis of the deposited data

Results flagged for a closer look

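The 7 genes whose change in lung differed from that in liver were Serpina6 (lung change minus liver change -1.70), Serpina10 (-1.14), Serpinf2 (-0.97), Serpina3a (1.02), Serpina5 (1.13), Serpina7 (1.46) and Serpina4-ps1 (2.85). The interaction term of limma gave adjusted p-values from 0.000748 to 0.00905.

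A probe set annotated to Serpina1e, Serpina1c and Serpina1b together was outside the gene tests and was higher in pregnant mice in both tissues. In lung it read 2.60, 2.44 and 2.40 in virgin and 3.11, 3.14 and 3.00 in pregnant mice, all below the median of all probe sets (log2 0.60 ± 0.10, limma adjusted p = 0.0199). In liver it read 10.85, 10.78 and 11.09, and 11.68, 11.50 and 11.56 (log2 0.67 ± 0.10, limma adjusted p = 0.000487). The probe set shared by Serpina1d and Serpina1a changed by 0.36 in lung and 0.37 in liver with no call.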

How the results depend on the processing

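All 656 values of the named genes under single alternatives kept their direction, and 59 lost the call, while 25 of the 34 named results lost none. The 34 included 12 differences between the virgin tissues and 7 between the changes, and none of these lost a call. Every lost call was a change with pregnancy. Both lung results lost calls, as did all liver results other than Serpina10, Serpina3a, Serpina4-ps1, Serpina5, Serpina6 and Serpina7. A gene absent from a fit was not counted there, so its call could not be lost. Serpina10 and Serpina1b were absent without probe sets with shared-sequence suffixes. Serpina5, Serpina7 and Serpinb1b were absent with dim genes left out. In lung 2 genes were called, against 1 without probe sets with shared-sequence suffixes, 4 with a variance trend and robust moderation, 4 with array weights, 1 with only the 6 arrays compared and 0 at an adjusted p under 0.01. Leaving out 1 array gave 0 to 4 lung calls (0 without virgin pool 2 or pregnant pool 2, 1 without virgin pool 3 or pregnant pool 1, 4 without pregnant pool 3). In liver 13 were called, against 6 at an adjusted p under 0.01, and 6 to 11 when 1 array was left out (6 without virgin pool 2, and 8 without either virgin pool 1 or pregnant pool 3). With liver pool 3 as a block 13 were called.

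Deviations of samples with the same pool number correlated weakly between groups (-0.11 to 0.108, against -0.197 to 0.11 for different numbers). These overlapping ranges cannot exclude a link between arrays of the same number. The labels name no pairs, so the main fit did not take the numbers as pairs, although both liver arrays of pool 3 had low spike-in levels. With pool number as a replicate block the counts were 1 in lung, 12 in liver, 7 for the difference between changes, 29 for virgin tissues and 29 for pregnant tissues. The remaining counts moved by less than 1.5 times. Levels below the median of all probe sets, where 15 of the 40 genes lay in all groups, limit what changes can be seen.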
